A study of Rattus norvegicus with 24 samples.

Results

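Troponin and tropomyosin form the regulatory strand of the thin filament of skeletal muscle, and 10 of their genes were followed here: the slow genes Tnnt1, Tnni1, Tnnc1 and Tpm3, the fast genes Tnnt3, Tnni2, Tnnc2 and Tpm1, Tpm2, which is used in both fiber types, and Tnnt2, the cardiac and embryonic troponin T. They were taken by gene symbol from a transcript table of 20027 transcripts of 15273 genes, in which they had 34 transcripts. All 10 genes and 29 of the 34 transcripts were at 1 or higher in 3 or more muscles and were tested. The 5 that did not were 3 of 8 transcripts of Tpm1 and 1 each of Tpm3 and Tnnt2.

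Tropomyosin lies along the actin filament and blocks the myosin binding sites in resting muscle. Calcium binds troponin C, troponin I then lets go of actin, and troponin T anchors the complex to tropomyosin, so that tropomyosin moves and myosin can bind. Slow and fast fibers use different genes for each subunit, and Tnnt3, Tpm1 and Tpm3 give further forms by alternative splicing or by a second promoter.

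RNA came from the tibialis anterior (TA) muscle of 12 adult male Wistar rats, 3 each after 2, 10, 20 and 30 days of training. The left leg received 1 session of SpillOver resistance training per day from an implanted pulse generator, which stimulates the nerve to the dorsiflexors and lets current spill over to the plantarflexors as resistance, and TA was taken 1 h after the last session. The right TA of the same animal, not stimulated, was the contralateral control, and the 12 contralateral muscles served as 1 control group for all 4 comparisons. It shared the anesthesia and the abdominal implant, but the leg incision and the electrodes were on the left side only. Training and this leg surgery cannot be told apart by comparing the legs. Each trained group held 3 muscles.

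The values are TPM-type, with transcript length divided out and every muscle brought to the same sum, and were rescaled here by a median-of-ratios factor. The files used here hold no counts, so the reads behind each value, and the counting error they give, cannot be taken from them. The 10 genes together took 5.28% to 8.49% of each muscle's deposited values. Skeletal muscle markers, 6 of 7 listed, summed to 39852 to 71528 in trained and 44472 to 55907 in contralateral muscles. Cardiac markers, 4 of 7 listed, summed to 5.74 to 16.2 over all muscles. Fibroblast markers, which rose for 4 of 5 genes at 2 days and 5 of 5 later, summed to 74.6 to 253 in contralateral and 301 to 982 in trained muscles, and macrophage markers to 3.81 to 11.4 and 12.5 to 35.5. In whole muscle, fewer cells of a type and less RNA per cell cannot be told apart.

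The clearest difference was inside Tnnt3, the fast troponin T gene. From 10 days on, 2 of its 6 transcripts, Tnnt3-201 and Tnnt3-206, fell to a small part of their contralateral level, while the other 4 stayed near theirs. All 6 transcripts begin at position 215666628 of chromosome 1 on the plus strand (Rnor_6.0) and are protein coding. Which exons set them apart was not analysed here.

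Tnnt3-206 had values of 566, 1256 and 1952 in contralateral muscles (lowest, median and highest of 12). It stood at 701, 588 and 728 in the 3 muscles trained for 2 days, at 73.2, 116 and 75.0 after 10 days, at 102, 34.1 and 63.8 after 20 days and at 43.5, 93.6 and 254 after 30 days. Every muscle trained for 10 days or longer lay below every contralateral muscle, and the muscles trained for 2 days lay within the lower contralateral range. Tnnt3-201 ran beside it, with 323, 717 and 1135 in contralateral muscles and 20.7 to 150 in the 9 muscles trained for 10 to 30 days.

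On the log2(value + 1) scale, Tnnt3-206 fell by 3.77 ± 0.379 (SE) at 10 days (adjusted p = 1.36e-07, limma), fell by 4.26 at 20 days (3.56e-08) and fell by 3.53 at 30 days (8.07e-07). The differences of Tnnt3-201 were -3.67, -4.14 and -3.52 on the same days (adjusted p = 2.61e-07, 7.45e-08 and 1.09e-06). At 2 days the differences were -0.82 and -0.80 and did not pass the test (adjusted p = 0.12 and 0.14). With animal as a block these calls were the same, with adjusted p from 4.6e-05 to 0.000285 at 10 to 30 days, and no call of these days was lost when any 1 trained muscle was left out. Among trained muscles, both transcripts were lower after 10 than after 2 days (differences of -2.94 and -2.87, adjusted p = 0.0026 and 0.0036) and after 30 than after 2 days (-2.71 and -2.73). Over all transcripts tested, 1.20% passed the 10 against 2 day test and 11.4% the 30 against 2 day test. The third of the 29 tested transcripts to pass the latter was Tpm1-201 (-1.33, adjusted p = 0.0088). With animal as a block only the 30 against 2 day difference of Tnnt3-201 and Tnnt3-206 passed.

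As a share of the Tnnt3 sum, both transcripts together held 7.06% to 22.7% in contralateral muscles (median 16.4%). Together they held 11.1%, 10.6% and 11.8% after 2 days, 1.33%, 1.83% and 1.29% after 10 days, 1.30%, 0.659% and 1.30% after 20 days and 0.681%, 1.30% and 3.63% after 30 days. The contralateral muscles of the 10-day group were spread most widely, from 7.06% to 22.7%, and still did not overlap with any muscle trained for 10 days or more. The sum of both transcripts was formed after their values had been seen and has no test.

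**Figure D1:**
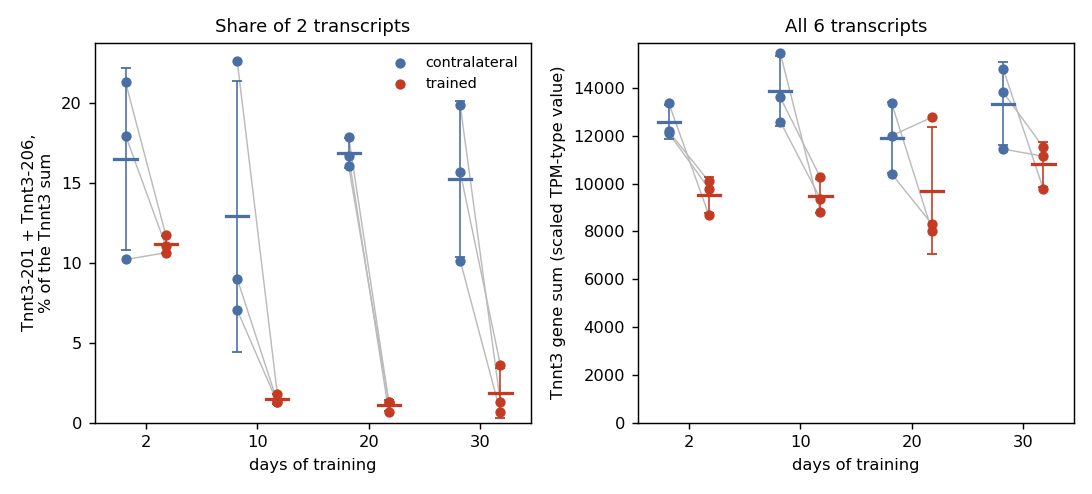
Left, the percent of the Tnnt3 gene sum held by Tnnt3-201 and Tnnt3-206 together against days of training; right, the Tnnt3 gene sum in scaled TPM-type values. Points are single muscles, grey lines join the 2 muscles of an animal, and bars give the mean and SD of 3 muscles. The trained muscles of 10 to 30 days sit at 0.659% to 3.63%. Their gene sums run from 8026 to 12775, against 10403 to 15472 in contralateral muscles.

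Taken singly, Tnnt3-206 made up 9.79% ± 3.28 (SD, n = 12) of Tnnt3 on the contralateral side and 0.921% ± 0.184 (SD, n = 3) on the side trained for 10 days, and Tnnt3-201 held 5.60% ± 1.84 and 0.562% ± 0.118. An exact two-sided permutation test of 3 trained against 12 contralateral muscles gave p = 0.0044 for both at 10, 20 and 30 days, the smallest it can give. The shares of Tnnt3-202, Tnnt3-203, Tnnt3-204 and Tnnt3-205 were higher on these days, which follows from shares adding up to the whole and is no separate result. Adjusted over the 5175 shares of all genes with more than 1 transcript, no permutation p passed (0.33 to 0.39 for both), so a limma fit of the log2 shares was run over the same 5175. In that fit the share of 1 of 27 member transcripts differed after 2 days of training, of 9 after 10, of 8 after 20 and of 7 after 30. In the fit with the block of animals 0, 2, 4 and 2 of the 27 differed, beside 0.251%, 0.232%, 0.348% and 0.193% of all shares. Without the block 1.14%, 1.43%, 0.812% and 1.02% of all shares passed. Shares of the same gene are bound together, as those of Tnnt3 are, so the counts of member shares are not counts of separate results. Tnnt3-206 and Tnnt3-201 had the third and the fourth lowest log2 share difference of the 5175 on each of the later 3 days (-3.32 and -3.23 at 10 days), after Myh4-203 and Myh4-204, 2 transcripts that the table assigns to the fast myosin heavy chain Myh4 and that were picked out after this order was seen. Myh4-203 stood at 4974 to 7888 in contralateral muscles, 3200 to 6378 after 2 days and 31.4 to 663 after 10 to 30 days. Myh4-202, with the same gene label, went the other way. It stood at 2701 to 7236 in contralateral muscles, 5871 to 6835 after 2 days and 8586 to 11593 after 10 to 30 days. No transcript carried the symbol Myh1 or Myh2.

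The 4 larger transcripts moved as 1 set. Tnnt3-203 measured 48.6% to 49.7% and Tnnt3-204 28.0% to 28.6% of Tnnt3-202 in all 24 muscles, and Tnnt3-201 measured 52.8% to 62.8% of Tnnt3-206. Members of such a set do not give separate measurements, and how reads were divided among transcripts with shared exons is not given in the sources used here. Tnnt3-202 stood at 3704 to 6031 in contralateral muscles and at 3836, 3328 and 3689 after 2 days, 3720, 4308 and 3958 after 10 days, 5377, 3531 and 3381 after 20 days and 4154, 4849 and 4605 after 30 days. None of Tnnt3-202, Tnnt3-203, Tnnt3-204 and Tnnt3-205 passed the limma test on any day. The lowest adjusted p was 0.052, for Tnnt3-203 at 2 days, and later it was 0.25 or more.

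Tpm3, which encodes the slow skeletal tropomyosin and also shorter non-muscle forms, showed 2 transcripts with different courses. Tpm3-203, the dominant one, covers chr2:189423559-189442320 of the plus strand (Rnor_6.0). Tpm3-201 covers chr2:189430041-189451030, so it begins 6482 bases further downstream and ends beyond Tpm3-203. RefSeq promoter windows of 300 bases (250 before and 50 after a start, GRCr8) were found for 8 of the 10 genes, and for Tpm3 they number 3. The second Tpm3 window lies 6482 bases from the first, the same distance as between the starts of Tpm3-203 and Tpm3-201, and the third, 6524 from the first and overlapping the second, matches the start of Tpm3-202. The windows of the outer and the inner start, chr2:177814633-177814932 and chr2:177821115-177821414 of GRCr8 on the plus strand, are shown because their transcripts differed in response. Capitals mark E-boxes (CANNTG) and GC boxes (GGGCGG), searched on both strands.
Tpm3 outer start: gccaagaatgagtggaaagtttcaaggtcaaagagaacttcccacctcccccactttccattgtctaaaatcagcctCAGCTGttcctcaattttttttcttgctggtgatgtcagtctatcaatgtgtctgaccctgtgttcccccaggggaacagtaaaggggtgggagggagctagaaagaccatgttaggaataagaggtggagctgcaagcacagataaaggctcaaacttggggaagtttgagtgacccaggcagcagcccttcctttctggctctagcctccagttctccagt
Tpm3 inner start: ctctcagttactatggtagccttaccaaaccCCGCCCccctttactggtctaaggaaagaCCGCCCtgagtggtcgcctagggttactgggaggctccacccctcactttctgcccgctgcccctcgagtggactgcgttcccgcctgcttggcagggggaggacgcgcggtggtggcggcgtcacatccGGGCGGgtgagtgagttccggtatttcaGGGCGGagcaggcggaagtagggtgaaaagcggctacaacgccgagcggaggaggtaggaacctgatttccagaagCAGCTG

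The outer window held 1 E-box and no GC box, and the inner window held 1 E-box and 4 GC boxes. Over all 33469 windows of the table, 72.1% held an E-box and 33.1% a GC box. Neither window held TATAAA, a CArG box or a MEF2 site, which 14.2%, 1.6% and 3.3% of all windows held. G and C made up 49.0% of the outer and 62.3% of the inner window, with a median of 51.7% over all windows. A match here is a description of the letters and no evidence of binding.

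Tpm3-201 had values of 5.12, 6.85 and 8.94 in contralateral muscles (lowest, median and highest). It stood at 12.2, 14.9 and 15.4 after 2 days, 18.9, 11.3 and 16.5 after 10 days, 14.7, 12.5 and 14.03 after 20 days and 11.7, 11.6 and 11.997 after 30 days, so all 12 trained muscles lay above all 12 contralateral muscles. It rose by 0.96 ± 0.137 (SE), 1.07, 0.92 and 0.72 on the log2 scale at 2, 10, 20 and 30 days (limma adjusted p = 1.9e-05, 4e-06, 4.43e-05 and 0.000812). With animal as a block the adjusted p values were 0.0044, 0.0045, 0.0028 and 0.023.

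Tpm3-203 went the other way in sign without passing the test on any day. It ranged from 94.8 to 196 in contralateral muscles, and its differences were -0.65, -0.48, -0.13 and -0.38 (adjusted p = 0.083, 0.22, 0.80 and 0.37). Tpm3-201 therefore made up 4.59% ± 1.23 (SD, n = 12) of Tpm3 in contralateral muscles and 13.5% ± 3.95, 14.2% ± 7.29, 9.46% ± 1.34 and 9.98% ± 3.66 (SD, n = 3 each) in the 4 trained groups. The exact two-sided permutation p of the share was 0.0044, 0.013, 0.0044 and 0.013. In the limma fit of all shares it passed at 2 and 10 days (adjusted p = 0.014 and 0.019), and with animal as a block at 20 days alone (0.044). Replicate 2 of the muscles trained for 10 days (5.85%) and replicate 2 of those trained for 30 days (6.21%) stood inside the contralateral range of 2.99% to 6.27%. The fibroblast and macrophage markers given above also rose on all 4 days, and their part in the rise of Tpm3-201 was not tested.

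**Figure D2:**
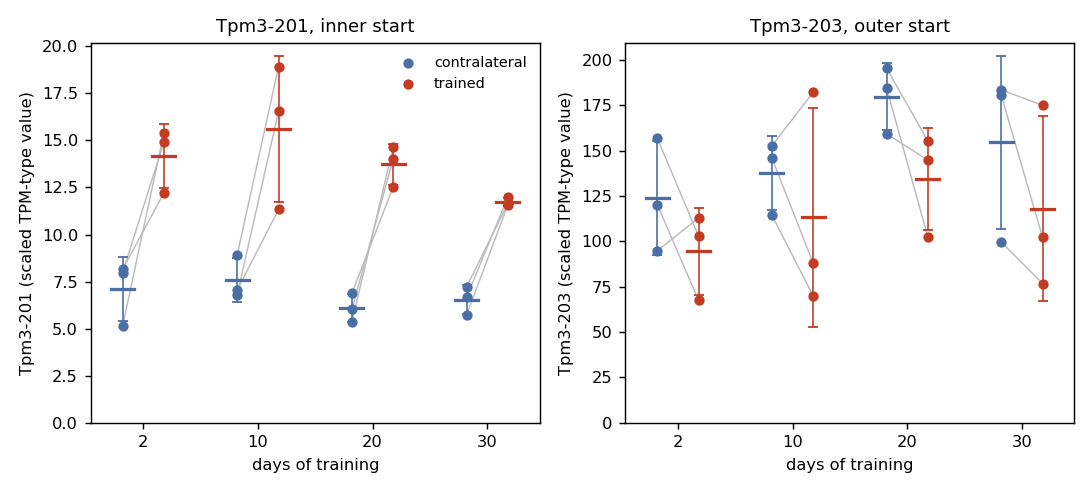
Scaled TPM-type values of Tpm3-201 (left) and Tpm3-203 (right) against days of training, 1 point per muscle, with grey lines joining the muscles of an animal and bars for the mean and SD of 3 muscles. Tpm3-201 is at 11.3 or more in each trained and 8.94 or less in each contralateral muscle, and Tpm3-203 overlaps between the legs.

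Some low transcripts of the other tropomyosins also differed. Tpm2-202, which ends further downstream than the main Tpm2-201, stood at 12.1, 15.6 and 12.6 after 2 days against 4.93 to 13.3 in contralateral muscles and rose by 0.70 (limma adjusted p = 0.019), a call lost with animal as a block (0.28, adjusted p = 0.39), where the right legs of the same animals had 9.16 to 13.3. Tpm1-204, which ends at position 72814740 of chromosome 8 (minus strand), beyond the main Tpm1-205, stood at 6.63, 7.40 and 6.59 after 2 days against 2.07 to 6.96 in contralateral muscles, and its level did not pass the test (0.53, adjusted p = 0.11). Its share of Tpm1 was 0.0424% ± 0.0144 (SD, n = 12) in contralateral muscles and 0.0764% ± 0.00704 after 2 days and 0.0870% ± 0.0268 after 10 days (SD, n = 3), above every contralateral muscle on both days (exact permutation p = 0.0044). At 20 and 30 days it was 0.0602% and 0.0562% (exact permutation p = 0.088 and 0.15). The share of Tpm1-207, with the same end, was 0.0823% ± 0.0237 (SD, n = 12) in contralateral muscles. After 30 days it was 0.156% ± 0.0343 (SD, n = 3, exact permutation p = 0.0088). The level of Tpm1-207 did not pass there (0.34, limma adjusted p = 0.34), and the Tpm1 sum it is divided by fell (-0.58). Adjusted over all 5175 shares, these permutation p did not pass (0.25 and 0.37 for Tpm1-204 at 2 and 10 days, 0.48 for Tpm1-207). Smooth muscle markers summed to 42.7 to 84.2 in contralateral muscles and 84.6 to 108 after 2 days, with 3 of 5 passing the test (0 of 5 with animal as a block), and their part was not tested either.

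The slow to fast balance was the question behind the isoform pairs, since slow isoforms are those of slow, fatigue-resistant fibers. In contralateral muscles the slow gene held 1.74% ± 0.353 of Tnni1 + Tnni2, 1.17% ± 0.277 of Tnnt1 + Tnnt3, 1.20% ± 0.262 of Tnnc1 + Tnnc2 and 1.40% ± 0.306 of Tpm3 + Tpm1 (SD, n = 12 each), on the length-scaled values. In trained muscles it ranged from 0.856% to 3.03%, 0.641% to 2.16%, 0.644% to 2.43% and 0.921% to 2.73%. Trained and contralateral muscles overlapped in all 4 pairs on all 4 days.

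None of the 16 tests of the log2 slow to fast ratio passed (exact two-sided permutation, 3 against 12 muscles, smallest possible p = 0.0044, adjusted over 16). The lowest raw p was 0.062, for Tnni1/Tnni2 at 30 days, with a log2 difference of -0.47 (adjusted p = 0.61), and the next was 0.097, for Tpm3/Tpm1 at 20 days, with 0.48. Over the 12 animals, the paired log2 differences were -0.20 ± 0.446 (SD) for Tnni1/Tnni2, -0.025 ± 0.447 for Tnnt1/Tnnt3, 0.054 ± 0.481 for Tnnc1/Tnnc2 and 0.15 ± 0.385 for Tpm3/Tpm1. They were higher in the trained leg in 4, 5, 5 and 7 of 12 animals, and an exact two-sided sign-flip permutation test gave adjusted p of 0.40, 0.85, 0.85 and 0.40. The paired differences did not differ between the 4 training times either (exact permutation of the animals over the days, adjusted p = 0.90 for all 4 ratios). A miss of the threshold does not show that the balance was the same: with an SD of 0.385 to 0.481 between animals, differences of the size seen are within their spread.

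In the 3 troponin pairs the muscles trained for 10 days had the widest spread of the 4 trained groups. Replicate 2 of the muscles trained for 10 days had the highest slow shares of Tnni1 (3.03%), Tnnt1 (2.16%) and Tnnc1 (2.43%) of all 24 muscles, and replicate 3 of that group had the lowest (0.856%, 0.641% and 0.644%). Without replicate 2 the Tnnc1/Tnnc2 log2 difference at 10 days was -0.35 in place of 0.12, and that of Tnnt1/Tnnt3 was -0.42 in place of 0.032.

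**Figure D3:**
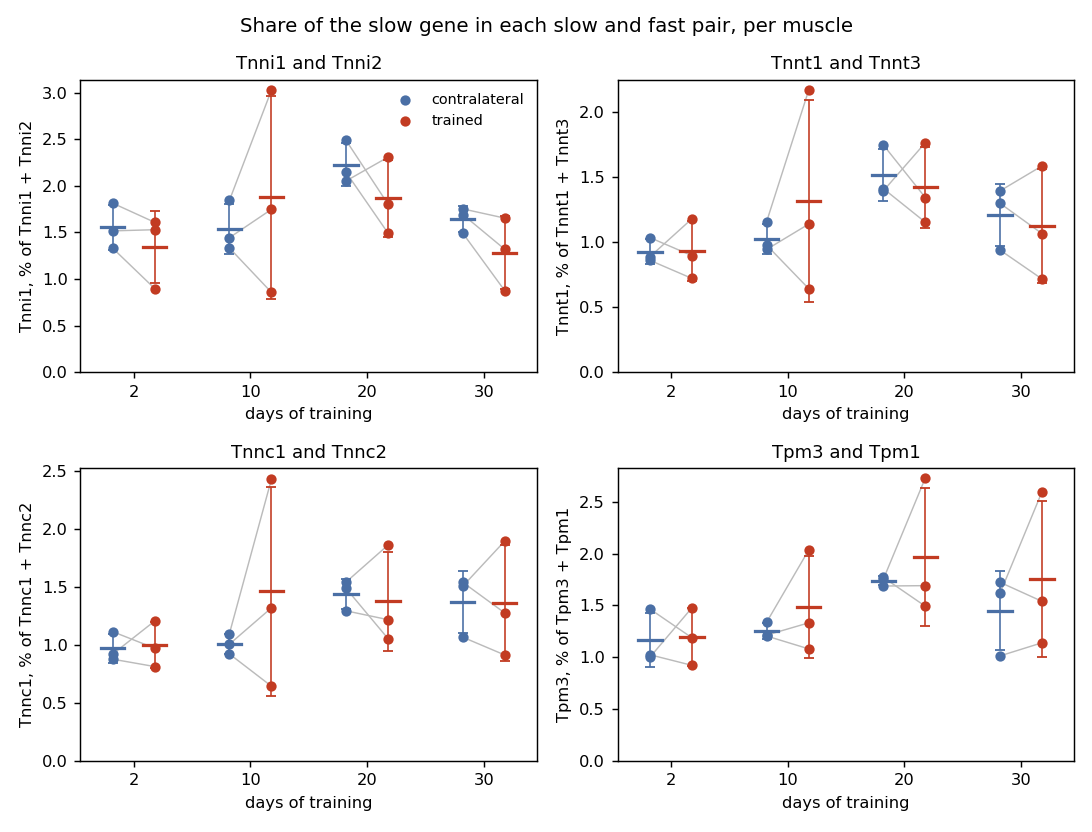
Percent of each slow and fast pair held by the slow gene, in each muscle, against days of training. Grey lines join the legs of an animal, bars give the mean and SD of 3 muscles, and the shares lie between 0.641% and 3.03% with overlap between the legs in every panel.

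At the level of gene sums, 4 of the 10 members passed the limma test at 2 days, 3 did at 10 days and 2 did at both 20 and 30 days. Among all 11196 genes tested 28.9%, 28.9%, 21.4% and 20.6% passed on these days, so the members' counts were near those of all genes. Their median log2 differences were -0.34, -0.18, -0.15 and -0.28, beside medians of -0.014, -0.029, -0.029 and -0.0059 over all genes. On the values as deposited the median of all genes at 30 days was -0.18, and 5 members passed there (Tnnc2, Tnni1, Tnni2, Tnnt3 and Tpm1, all lower). With animal as a block 1, 3, 1 and 1 members passed on the 4 days. They were Tnnt2 at 2 and 10 days, Tnnt3 at 10 days and Tpm1 at 10, 20 and 30 days. The percentages of all genes given above are from the fit of the rescaled values without the block. The counts with the block and on the values as deposited therefore have no share of all genes beside them.

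**Figure D4:**
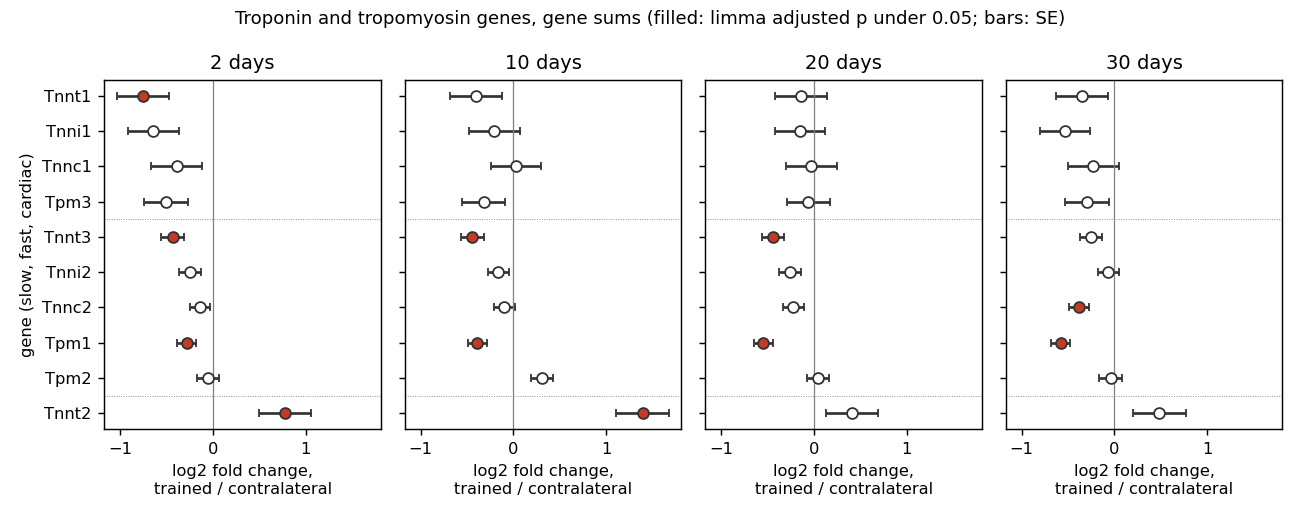
Log2 fold change of each gene sum, trained against 12 contralateral muscles, on the 4 days, with SE bars; filled points have a limma adjusted p under 0.05. Slow genes are at the top, fast genes and Tpm2 in the middle and Tnnt2 at the bottom; Tpm1 is filled in all 4 panels, from -0.28 at 2 days to -0.58 at 30 days.

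Tpm1, the fast alpha-tropomyosin, fell on all 4 days on the rescaled values. Its sum was 9604, 10916 and 12625 in contralateral muscles (lowest, median and highest). It was 9594, 8903 and 8560 after 2 days, 7924, 9337 and 7923 after 10 days, 9279, 7591 and 6045 after 20 days and 7304, 7005 and 7709 after 30 days. On the rescaled values all 12 lay below every contralateral muscle. The log2 differences were -0.28 ± 0.104 (SE), -0.39, -0.54 and -0.58 (adjusted p = 0.044, 0.0063, 0.00047 and 0.0003). Nearly all of it was Tpm1-205, which held 99.4% ± 0.139 (SD, n = 12) of Tpm1 in contralateral muscles. The 2-day call was lost without replicate 2 or replicate 3 (adjusted p = 0.16 and 0.18). On the values as deposited Tpm1 did not pass at 2 and 10 days (-0.17 and -0.27, limma adjusted p = 0.26 and 0.064). It passed there at 20 and 30 days (-0.55 and -0.80, adjusted p = 0.00056 and 8.1e-06). Tpm1-201, with 31.6 to 73.1 in contralateral muscles, fell at 20 and 30 days (-0.84 and -1.02, adjusted p = 0.024 and 0.0075; with animal as a block 0.015 and 0.067).

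Tnnt3 as a gene sum, all 6 transcripts together, stood at 10403, 12975 and 15472 in contralateral muscles. It was 10097, 8689 and 9796 after 2 days, 8818, 10258 and 9371 after 10 days, 12775, 8309 and 8026 after 20 days and 9758, 11515 and 11142 after 30 days. The trained muscles of 2 and 10 days lay below all contralateral ones, and those of 20 and 30 days overlapped with them. It fell by 0.44 at 2, 10 and 20 days (adjusted p = 0.0085, 0.0073 and 0.010) and differed by -0.25 at 30 days (adjusted p = 0.14). Calls were lost without replicate 2 at 2 days (adjusted p = 0.093), replicate 1 at 10 days (0.062) and replicate 2 or 3 at 20 days (0.10 and 0.11), and with animal as a block at 2 and 20 days (0.092 and 0.19). When Tnnt3 was represented by its highest transcript, Tnnt3-202, the differences at 10 and 20 days were -0.22 and -0.21 and did not pass (adjusted p = 0.25 and 0.30).

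Tnnc2, the fast troponin C, has 1 transcript, Tnnc2-201. It stood at 8459 to 11186 in contralateral muscles and at 7159, 7271 and 6863 after 30 days, where it fell by 0.38 (adjusted p = 0.015). With animal as a block the difference was -0.29 (adjusted p = 0.20). Leaving out replicate 3 gave -0.36 (adjusted p = 0.076). On the earlier days it differed by -0.14, -0.098 and -0.22 with overlap and no call.

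**Figure D5:**
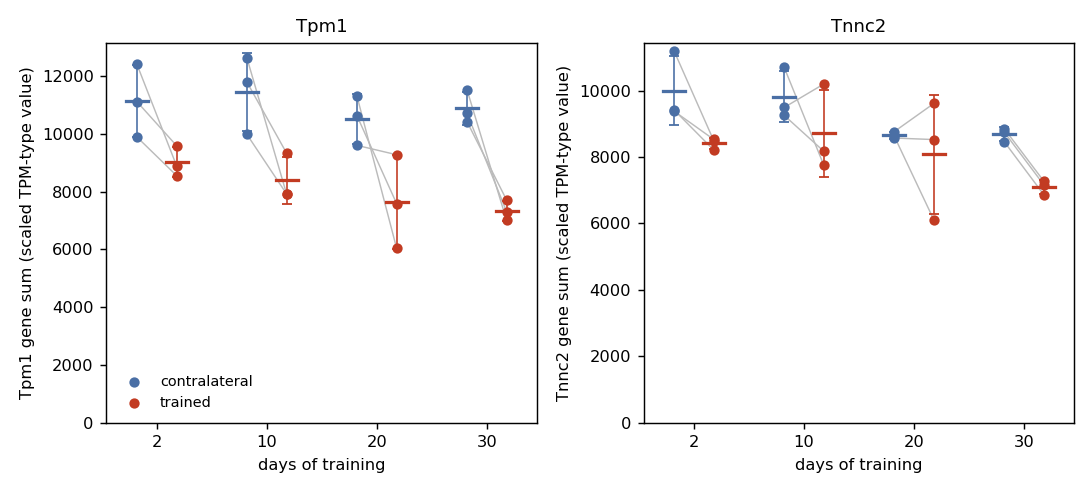
Gene sums of Tpm1 (left) and Tnnc2 (right) in scaled TPM-type values against days of training, 1 point per muscle, with grey lines joining the legs of an animal and bars for the mean and SD of 3 muscles. All 12 trained muscles have a Tpm1 sum of 9594 or less, under the lowest contralateral sum of 9604, and Tnnc2 leaves the contralateral range in all 3 muscles at 30 days only.

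Tnni2, the fast inhibitory subunit, did not pass as a sum on any day on the rescaled values (-0.25, -0.16, -0.26 and -0.068, adjusted p = 0.11, 0.31, 0.11 and 0.73). On the values as deposited Tnni2 passed at 20 and 30 days (-0.26 and -0.29, limma adjusted p = 0.047 and 0.018). Of its 6 transcripts, Tnni2-202 stood at 142 to 197 in contralateral muscles and at 98.6, 148 and 90.1 after 10 days, 115, 98.6 and 67.2 after 20 days and 129, 127 and 98.6 after 30 days. It fell by 0.66, 0.91 and 0.56 on these days (limma adjusted p = 0.0017, 9.38e-05 and 0.0097; with animal as a block 0.030, 0.0045 and 0.041), and the 30-day call was lost without replicate 3 (-0.44, adjusted p = 0.11). Its share of Tnni2 was 2.20% ± 0.238 in contralateral muscles and 1.39% ± 0.161 after 20 days. Tnni2-203 fell at 20 days (-0.31, adjusted p = 0.035; with animal as a block -0.17, adjusted p = 0.47). Tnni2-204, annotated as a retained intron and at 2.14 to 13.7 in contralateral muscles, fell at 2 and 30 days (-0.97 and -0.88, adjusted p = 0.019 and 0.042), of which the 30-day call was lost with animal as a block (-0.43, adjusted p = 0.41). Tpm2, the beta-tropomyosin, did not pass on any day and differed most at 10 days (0.30, adjusted p = 0.058; on the values as deposited 0.43, adjusted p = 0.0037).

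At transcript level, counting all members, 4 of 29 passed after 2, 6 after 10, 7 after 20 and 8 after 30 days. Of all 13452 transcripts 22.9%, 22.8%, 16.6% and 16% passed. The fit with the block of animals called 2, 4, 5 and 5 of the 29, and the percentages of all transcripts are from the fit without it. Tpm1-205 passed at 10, 20 and 30 days (with the block at 30 days alone, adjusted p = 0.076, 0.067 and 0.044) and Tnnc2-201 at 30 days (with the block 0.25).

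Among the slow genes only Tnnt1, the slow troponin T, passed, at 2 days. It stood at 108, 153 and 195 in contralateral muscles (lowest, median and highest) and at 91.1, 62.9 and 117 after 2 days, 1 of which overlapped, and fell by 0.75 ± 0.279 (adjusted p = 0.045; with animal as a block -0.41, adjusted p = 0.27). Without replicate 2 the difference was -0.52 (adjusted p = 0.33), without replicate 1 -0.78 (0.081) and without the contralateral replicate 1 of the 30-day group -0.72 (0.060). Tnni1, the slow inhibitory subunit, was 106 to 170 in contralateral muscles and 110, 57.2 and 108 after 2 days (-0.64, adjusted p = 0.080). Tnnc1, which slow fibers share with the heart, and Tpm3 as a sum differed by -0.39 and -0.50 at 2 days (adjusted p = 0.30 and 0.11), and none of these 3 passed later, where their differences ranged from -0.53 to 0.027. The muscle of the 10-day group with the high slow shares had 227 of Tnnt1, 256 of Tnni1, 254 of Tnnc1 and 194 of Tpm3.

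Tnnt2 rose at 2 and 10 days from a low level. It stood at 0.146, 0.962 and 2.25 in contralateral muscles, at 1.24, 2.04 and 4.82 after 2 days and at 7.33, 4.53 and 2.09 after 10 days, with overlap in both. The log2(value + 1) differences were 0.77 ± 0.284 (adjusted p = 0.043) and 1.39 (0.00059), and 0.41 and 0.48 at 20 and 30 days did not pass. The 2-day call was lost with a pseudocount of 0.1 (adjusted p = 0.064), without replicate 2 (0.11), without replicate 3 (0.39, adjusted p = 0.40) and without the contralateral replicate 1 of the 30-day group (adjusted p = 0.054). Its transcript Tnnt2-201 gave 0.95 and 1.57 (adjusted p = 0.036 and 0.00095), and with animal as a block neither passed (0.073 and 0.057). Markers of regenerating fibers (Myh3, Myh8, Myog, Myod1 and Pax7, 4 of them tested) rose for 2 at 2 days (1 with animal as a block) and 2 at 10 days, with sums of 26.8 to 60.7 in contralateral muscles, 42.2 to 81.5 after 2 days and 49.0 to 93.7 after 10 days, and their part in the rise of Tnnt2 was not tested.

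Between trained groups no member passed at gene level with limma, in the 10 against 2, 20 against 10, 30 against 20 or 30 against 2 day comparisons. At an unadjusted p under 0.05 there were 1, 1, 0 and 1 of 10. Among all genes 1.93%, 0.170%, 0.0357% and 15% passed. With animal as a block no member passed either, and on the values as deposited 2 passed for 30 against 2 days. The percentages of all genes are from the rescaled values without the block, so that count has no share of all genes beside it.

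The total of each subunit was lower in trained muscle on some days. Troponin T (Tnnt1 + Tnnt3) summed to 13082 ± 1433 (SD, n = 12) in the contralateral group, to 9618 ± 762 in the 2-day and to 9612 ± 798 in the 10-day trained group (SD, n = 3), log2 differences of -0.44 on both, with an exact two-sided permutation p of 0.0044 and an adjusted p over 16 tests of 0.018. Troponin C fell by 0.14 at 2 days (adjusted p = 0.035) and by 0.38 at 30 days (0.018), troponin I by 0.25 at 2 days (0.035) and tropomyosin, the sum of Tpm1, Tpm2 and Tpm3, by 0.36 at 30 days (0.018). The tropomyosin sum was 17403 ± 1373 in contralateral muscles and 13535 ± 579 after 30 days. These 6 of 16 tests passed on the rescaled values. They did not use the pairing of the legs, and the sums were not tested with animal as a block. Each troponin sum is mostly its fast gene. In the blocked limma fit of single genes, Tnnt3 passed at 10 days (adjusted p = 0.028) and not at 2 days (0.092). Tnni2 at 2 days (0.20) and Tnnc2 at 2 and 30 days (0.23 and 0.20) did not pass, and Tpm1 at 30 days did (0.024). On the values as deposited the falls of troponin I and C at 2 days did not pass (-0.14 and -0.026).

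More of the other thin filament genes rose than fell. Of 18 genes of actin, filament caps and their binding partners, 17 were tested, and 9 rose and 0 fell at 2 days, 10 rose and 2 fell at 10 days, 4 rose and 1 fell at 20 days and 7 rose and 1 fell at 30 days, with median log2 differences of 0.75, 0.60, 0.25 and 0.22. On the values as deposited 11 rose and 0 fell at 10 days, 4 rose and 0 fell at 20 days and 4 rose and 3 fell at 30 days. In the blocked fit 8 rose and 0 fell at 10 days and 4 rose and 0 fell at 30 days. In the main fit 28.9%, 28.9%, 21.4% and 20.6% of all genes tested passed on the 4 days. At 30 days the largest rises in this list were Xirp1, an actin-binding repair protein (2.94), Lmod2, a leiomodin that nucleates actin (1.69), and Klhl40, which stabilises leiomodin (1.53), and the fall was Tmod1, the pointed-end cap (-0.43), a call lost with animal as a block. Tpm4, a tropomyosin of non-muscle cells, chosen after its values were seen, rose by 0.79, 1.11, 0.96 and 0.75 (adjusted p = 0.00083, 1.68e-05, 0.000156 and 0.0021).

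Other fast fiber genes mostly fell. Of 11 tested from a list of 14, 6, 7, 8 and 7 fell on the 4 days and 1 rose, at 10 days, with medians of -0.34, -0.52, -0.58 and -0.48; on the values as deposited 2 rose and 6 fell at 10 days, and with animal as a block 0 rose and 5 fell. The largest falls at 30 days were Pvalb, the fast-fiber calcium buffer (-3.16), Actn3, the fast alpha-actinin (-2.18), and Mylk2, the kinase of the myosin regulatory light chain (-1.84). Of 14 slow fiber genes, 3 rose and 7 fell at 2 days, 5 rose and 1 fell at 10 days and 2 rose and 1 fell at both 20 and 30 days. Among all genes tested, 28.9%, 28.9%, 21.4% and 20.6% passed on the 4 days. The 3 of 14 slow fiber genes that passed at both 20 and 30 days were near that share. At 30 days Csrp3, a muscle LIM protein (2.65), and Mb, myoglobin (0.65), rose and Myh7b fell (-0.65). The blocked fit gave a different count, in which 3 rose and 2 fell at 2 days, 5 rose and 0 fell at 10 days, 2 rose and 2 fell at 20 days and 2 rose and 0 fell at 30 days, so that the 30-day call of Myh7b was lost. On the values as deposited 2 rose and 2 fell at 30 days and 2 rose and 0 fell at 20 days.

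Across the 24 muscles the slow members followed each other closely. Pearson r of log2 values was 0.95 between Tnnt1 and Tpm3, 0.93 between Tnnt1 and Tnni1 and 0.91 between Tnnt1 and Tnnc1. It was 0.49 between Tnnt1 and Tnnt3. Among the fast members it ranged from 0.60 (Tnnt3 and Tnnc2) to 0.89 (Tnnt3 and Tnni2). Among 3832 genes with a mean of at least 10, the closest to Tnnt1, Tnni1 and Tpm3 was Myh7, the slow myosin heavy chain (0.90, 0.86 and 0.85), and the closest to Tnnc1 was Myoz2 (0.79). The closest to Tnnt3 and to Tnni2 was Rabep2 (0.94 and 0.88), and to Tnnc2 it was Mlf2 (0.90). The 24 points share libraries, scaling factors and the contrast between legs, and the 2 muscles of an animal are not independent, so these values are descriptions without a test.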

How the data were processed

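Poly-A RNA of 24 TA muscles from 12 rats was sequenced as paired-end reads. According to the submitters' processing notes and the study's methods, Partek Flow was used, with STAR as aligner, Rnor_6.0 as genome and Ensembl as annotation. For each transcript, the authors deposited a TPM-type value (20027, adding up to the same total of 634431 in every sample) and a table of gene values, taken as signal and used here only as an alternative. A further table with the authors' own comparisons (fold ratios and p-values) was not used. The files used hold no counts, so no count model was run, and the study's methods give only a minimum read number for all samples.

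Values were divided by median-of-ratios factors (16230 transcripts, 0.778 to 1.14), summed by gene symbol, and kept where 3 or more muscles had 1 or higher. The limma package (3.58.1; R 4.3.3) was applied to log2(value + 1), with 12 contralateral and 3 trained muscles per day in 1 fit and Benjamini-Hochberg adjustment over all features within a day (threshold 0.05). Fold changes on this scale understate those of low transcripts. Ratios, subunit sums and shares of single muscles were compared with exact two-sided permutation tests in Python 3.11.15 with scipy 1.17.1. The 4 comparisons share their 12 controls. Trained and contralateral muscles of 1 number are from the same animal by the sample labels, and the study's methods name the right hind limb as the control. Deviations from group means correlated within animals (median r 0.174, lowest 0.028, 12 pairs) and less between animals (-0.01). No library pair of 276 was identical. The scripts were checked on simulated data. Members, lists and tests were chosen with earlier results of these data known. Named are all 10 members, their tested transcripts, for each list up to 3 rises and 3 falls at 30 days, and for the slow and fast members the gene with the highest Pearson r, which for Tpm1 is not reported here. The limma fit of the shares was added after seeing the data. Alternatives are named in the closing section.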

Additional observations from a re-analysis of the deposited data

Results flagged for a closer look

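The trained minus contralateral difference of Tnnt3-201 and Tnnt3-206 differed between training times in the fit with animal as a block: it was lower after 30 than after 2 days by -2.70 and -2.69 on the log2 scale (limma adjusted p = 0.048 and 0.043). The 10 against 2 day differences were -2.55 and -2.60 in that fit and did not pass (adjusted p = 0.18 and 0.16).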

How the results depend on the processing

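The falls of Tnnt3-201 and Tnnt3-206 at 10 to 30 days and the rise of Tpm3-201 on all 4 days passed under each alternative run on them. The reads behind each value cannot be taken from the files used, and 3 trained muscles per day limit the precision. The contralateral muscles are 1 group of 12 over 4 times.

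The number of members called at 2 days, 4 of 10, was 2 on values as deposited, with a pseudocount of 0.1 and with no filter, and 1 with time-matched controls, with animal as a replicate block, with that block on deposited values and at an unadjusted p under 0.01. At 20 days, 2 became 1 with time-matched controls, with either block and with the highest transcript for the gene sum. At 30 days, 2 became 5 on deposited values and 1 with time-matched controls and with either block. Leaving out 1 replicate gave 0 to 3, 1 to 5, 1 to 4 and 1 to 2 calls at 2, 10, 20 and 30 days, with 0 at 2 days without trained replicate 2.

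None of the log2 ratios passed under an alternative, but signs turned. With time-matched controls, and equally with animal as a block, Tnnc1/Tnnc2 was 0.028 at 2, -0.11 at 20 and -0.055 at 30 days, Tnni1/Tnni2 0.12 at 10 and -0.28 at 20 days, Tnnt1/Tnnt3 -0.11 at 20 days and Tpm3/Tpm1 0.036 at 2 days. With the highest transcripts Tnnt1/Tnnt3 was -0.34 and Tpm3/Tpm1 -0.090 at 10 days. Leaving out 1 replicate gave Tnnc1/Tnnc2 -0.35 to 0.62, -0.051 to 0.37 and -0.12 to 0.41 at 10, 20 and 30 days, Tnni1/Tnni2 -0.49 to 0.44 and -0.063 to 0.26 at 10 and 20 days, Tnnt1/Tnnt3 -0.42 to 0.47 and -0.39 to 0.19 at 10 and 30 days, and Tpm3/Tpm1 -0.19 to 0.27 and -0.049 to 0.56 on the same days. Over all animals, leaving out 1 gave -0.048 to 0.11 for Tnnc1/Tnnc2 and -0.11 to 0.028 for Tnnt1/Tnnt3 (0.0080 without the 20-day animal 2 and 0.0087 without the 30-day animal 3).

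On deposited values the subunit sums differed by 0.019 (tropomyosin, 10 days), -0.30 (tropomyosin, 20 days, now passing), 0.027 and -0.026 (troponin C, 10 and 2 days), -0.14, -0.26 and -0.30 (troponin I, 2, 20 and 30 days, the last 2 now passing) and -0.44 and -0.48 (troponin T, 20 and 30 days, now passing). With 1 replicate left out, 2 muscles against 12 allow no p under 0.022. Those ranges were -0.19 to -0.054, -0.47 to -0.15 and -0.39 to -0.33 for tropomyosin at 10, 20 and 30 days, -0.15 to -0.12, -0.22 to -0.015 and -0.40 to -0.35 for troponin C at 2, 10 and 30 days, -0.28 to -0.21, -0.28 to -0.10, -0.42 to -0.12 and -0.16 to 0.028 for troponin I at 2, 10, 20 and 30 days, and -0.48 to -0.37, -0.50 to -0.39 and -0.65 to -0.32 for troponin T at 2, 10 and 20 days.

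Of single genes, deposited values turned Tpm2 at 2 days (0.061, and 0.12 with the block) and Tnnc2 at 10 days (0.023). Leaving out 1 replicate turned the sign of uncalled differences: Tnnc1 -0.56 to 0.56, -0.097 to 0.093 and -0.52 to 0.055 at 10, 20 and 30 days, Tnni1 -0.75 to 0.32 and Tnnt1 -0.91 to 0.032 at 10 days, Tpm2 -0.10 to 0.040, -0.14 to 0.19 and -0.14 to 0.022 at 2, 20 and 30 days, Tpm3 -0.17 to 0.11 and Tpm3-203 -0.25 to 0.048 at 20 days and Tnni2 -0.15 to 0.035 at 30 days. Except where stated, the cause of a change was not tested.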

Other observations

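The contralateral muscles were not alike in slow share over the 4 sampling times. Those of the 20-day group had the highest mean in all 4 pairs, 2.23% ± 0.229 of Tnni1 + Tnni2, 1.51% ± 0.199 of Tnnt1 + Tnnt3, 1.44% ± 0.131 of Tnnc1 + Tnnc2 and 1.74% ± 0.0438 of Tpm3 + Tpm1 (SD, n = 3). In the 2-day group the means were 1.55%, 0.925%, 0.972% and 1.16%. This difference was seen in the values and was not tested.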
